A study of Mus musculus with 10 samples.

Results

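Insulin and IGF signalling was followed through 10 genes in mouse dorsal root ganglia (DRGs), which house sensory neurons and their glia beside the spinal cord. They were the receptor genes Insrr, Insr, Igf1r and Igf2r, the receptor substrate genes Irs1 and Irs2, the ligand genes Igf1 and Igf2, and the binding protein genes Igfbp2 and Igfbp5. The genes were chosen by name with the comparison below already known, and each was read from the brightest probe set annotated to that gene alone, so that all 10 were measured among 19938 genes. In the Lkb1 KO embryos, floxed Lkb1 (gene symbol Stk11) had been deleted by Wnt1-cre, which acts in the neural crest lineage, and the WT embryos served as controls. The sources used here do not say whether WT embryos carried Cre or floxed alleles. Each group held 5 samples taken at E13.5 (embryonic day), every sample a pool of DRGs from 2 embryos on its own Affymetrix Mouse Gene 1.0 ST array. Values are log2 expression levels after RMA, in which a difference of 1 is a doubling. Because probes differ between genes, a level of one gene is not ranked against that of another. Where Insrr is given relative to the other receptors, only differences between pools are read.

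Insulin and the IGFs bind receptor tyrosine kinases at the cell surface, which phosphorylate insulin receptor substrates and so start the PI3K-AKT and RAS-MAPK chains. Secreted binding proteins hold IGFs in the blood and the extracellular matrix, and the mannose 6-phosphate receptor Igf2r carries Igf2 to lysosomes. Insrr, the insulin receptor-related receptor, belongs to the same kinase family but binds neither insulin nor IGFs and responds to alkaline pH, and it is known from embryonic sensory ganglia.

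Stk11 itself was at 8.70 ± 0.22 in WT and 7.78 ± 0.11 in Lkb1 KO (mean ± SD, n = 5 pools each, as in all group levels below), a difference of -0.92 (SE 0.09). Whether its probes fall inside the deleted exons is not known here. Array medians differed by at most 0.069. The label DRG was checked against 14 markers of sensory neurons, whose mean was between 9.86 and 10.18 in the 10 pools, and 8 of Schwann and satellite glia, with means between 9.50 and 9.69, where 25% of all genes had a mean level of at most 5.04. Marker means of meninges (8.05 to 8.33), cartilage and sclerotome (5.90 to 6.13), skeletal muscle (5.37 to 6.52) and spinal cord (5.43 to 5.61) were above 5.04 too. The check therefore does not show that the pools lacked surrounding tissue. Neural crest gives rise to the neurons and glia of a DRG but not to its blood vessels or to trunk mesenchyme, so that Lkb1 was not targeted in every cell of a pool. Lkb1 KO replicates 2 and 5 stood apart from the other 8 pools, with a mean of 3 Y-linked genes of 5.02 and 5.21 against 8.80 to 9.81. Their Xist levels were 12.36 and 12.37. For WT, Xist was low in replicates 1, 3 and 5 (4.48 to 5.46), with Y-linked means of 9.77 to 9.81. For Lkb1 KO it was low only in replicate 3 (4.89, Y-linked mean 9.72). The remaining pools had both signals, Xist at 11.70 to 11.81 and Y-linked means of 8.8 to 9.0. Leaving out Lkb1 KO replicates 2 and 5 therefore does not make the groups alike in these genes. Embryo sex is not stated in the sources used here.

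Of the 10 genes, Insrr was lower and Igfbp5 higher in all Lkb1 KO pools than in any WT pool, and these were the 2 that were called, which here means an adjusted p under 0.05 from limma over all 19938 genes. Of all genes 3.87% were called (2.49% higher and 1.38% lower in Lkb1 KO), and 5.34% had groups that did not overlap (3.09% with Lkb1 KO above WT, 2.24% below). Since the 10 genes were named with this contrast in view, nothing is read from these counts. The 8 that were not called had differences between -0.16 (Igf1 and Igfbp2) and 0.17 (Irs1). The median difference over the 10 genes was 0.04, against -0.0017 over all genes. By size of difference Insrr stood at rank 50 of all genes and Igfbp5 at rank 149.

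**Figure D1:**
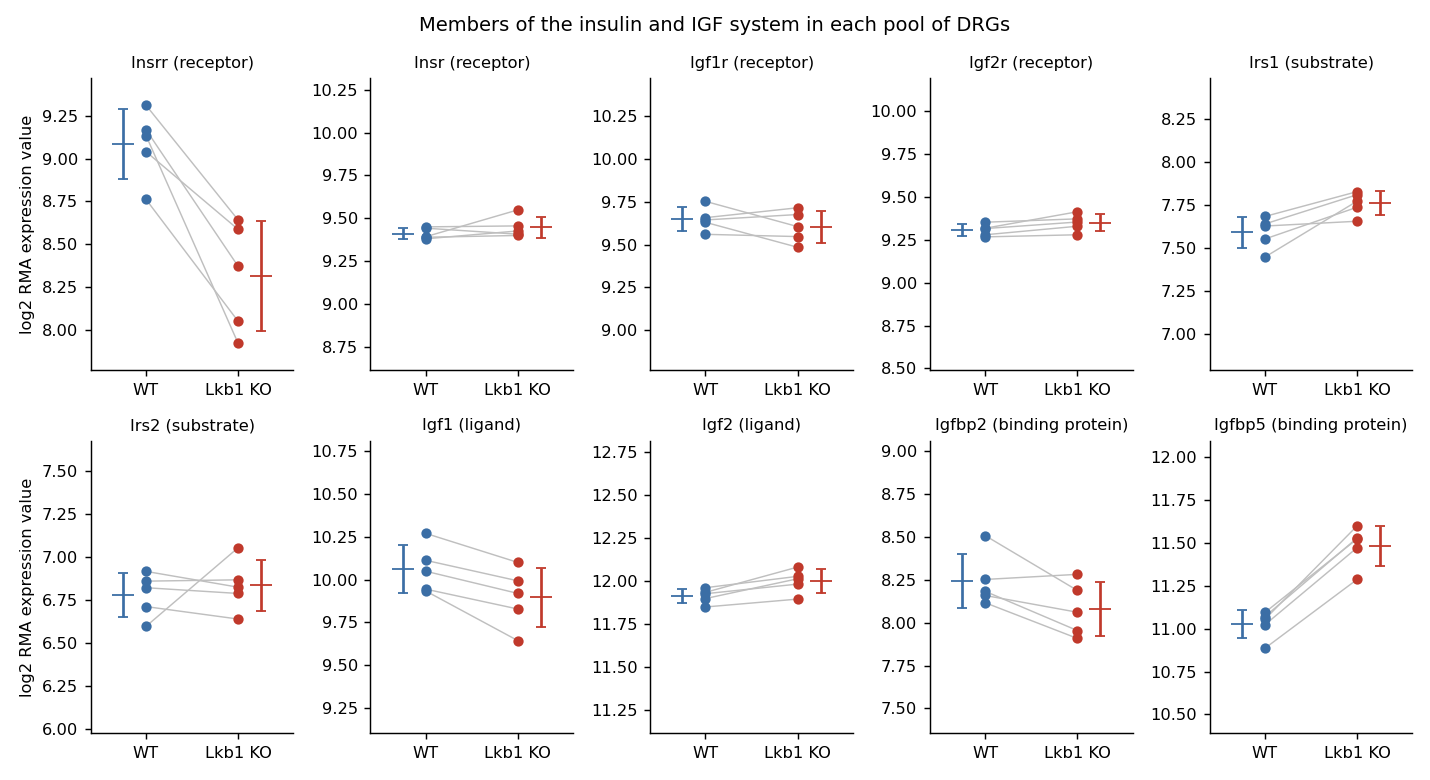
Log2 RMA expression value (y axis) of each of the 10 genes in the 5 WT pools (blue) and the 5 Lkb1 KO pools (red), with grey lines joining pools of the same replicate number and bars giving mean ± SD. All y axes span the same range, and Insrr and Igfbp5 are the panels in which the groups do not overlap.

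Among the receptors, Insrr was at 9.31, 9.17, 9.04, 9.13 and 8.76 in WT replicates 1 to 5. In Lkb1 KO replicates 1 to 5 it was at 8.64, 8.37, 8.59, 7.92 and 8.05. The highest Lkb1 KO pool was thus below the lowest WT pool, WT replicate 5, and replicates 4 and 5 were the lowest in Lkb1 KO. The group levels were 9.08 ± 0.20 in WT and 8.32 ± 0.32 in Lkb1 KO. The difference was -0.77 (SE 0.14, 95% confidence interval -1.07 to -0.47), so that WT exceeded Lkb1 KO 1.70-fold and 58.7% of the WT level remained. Between pools of the same number it ran from -0.45 in replicate 3 to -1.21 in replicate 4. Insrr also varied within groups, with a pooled SD of 0.27 that was larger than that of 98.8% of all genes (median 0.081). With any 1 pool left out the difference stayed between -0.85 and -0.67 and Insrr was still called. The call was lost with a gene-by-gene analysis of variance, with the Y-linked mean as a covariate (difference -0.69, SE 0.17) and without Lkb1 KO replicates 2 and 5 (-0.70, SE 0.16). It was also lost with the sensory neuron markers as a covariate, where the difference was -0.14, and with the fibroblast and mesenchyme markers, where it was -1.27, as described below. The 2 pools without Y-linked signal were at 8.05 and 8.37 for Insrr, inside the range of 7.92 to 8.64 of the 3 Lkb1 KO pools with it.

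The other receptors were nearly level between genotypes. Insr, the receptor for insulin, was at 9.39, 9.38, 9.44, 9.39 and 9.45 in the WT pools and at 9.55, 9.43, 9.41, 9.40 and 9.46 in the Lkb1 KO pools. The groups overlapped, and the difference of 0.04 (SE 0.04) had an interval from -0.05 to 0.12. A second Insr probe set was at 8.65 ± 0.06 in WT and 8.57 ± 0.05 in Lkb1 KO, a difference of -0.08 (SE 0.04), so that the sign was not shared by both. Igf1r, the main signalling receptor for both IGFs, was between 9.56 and 9.75 in WT and between 9.48 and 9.71 in Lkb1 KO, with a difference of -0.04 (SE 0.05, interval -0.15 to 0.07). Igf2r lay between 9.27 and 9.35 in WT and between 9.28 and 9.41 in Lkb1 KO. Its difference was 0.04 (SE 0.04, interval -0.04 to 0.12) and was above 0 in all 5 pairs of the same number, by at most 0.10. Among these 3 receptors the lowest lower limit was -0.15, for Igf1r, whereas the upper limit of the Insrr interval was -0.47. Insrr was chosen with this contrast known, so the gap between these limits describes the values and is not a test.

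Of the other receptors, Insr and Igf1r belong to the kinase family of Insrr and Igf2r does not. To set Insrr against these other receptors within each array, the mean of Insr, Igf1r and Igf2r was subtracted from it. This relative value was -0.10, -0.29, -0.45, -0.31 and -0.71 in WT replicates 1 to 5. In Lkb1 KO it was -0.82, -1.12, -0.86, -1.51 and -1.46. The groups did not overlap, although WT replicate 5 came close to Lkb1 KO replicates 1 and 3. The group means were -0.37 ± 0.23 and -1.15 ± 0.32, and their difference of -0.78 (SE 0.18) was nearly that of Insrr itself because the mean difference of the 3 other receptors was 0.01.

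**Figure D2:**
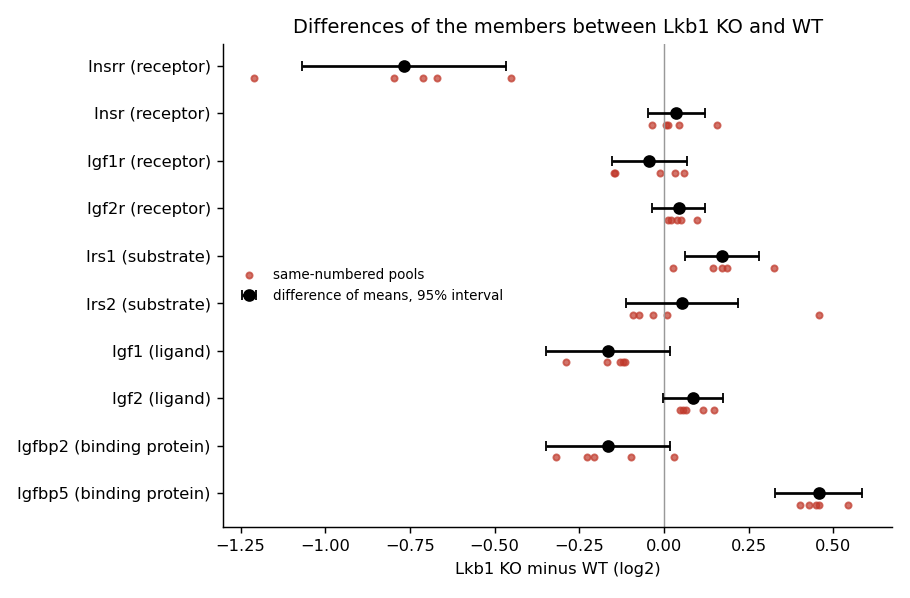
Difference between Lkb1 KO and WT on the log2 scale (x axis) for each of the 10 genes (y axis), with black points for the difference of group means, bars for its 95% confidence interval and red points for the 5 pairs of pools with the same replicate number. The intervals of Insrr (-1.07 to -0.47), Irs1 (0.06 to 0.28) and Igfbp5 (0.33 to 0.58) lie to one side of 0.

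The substrates differed from each other. Irs1, a docking protein that couples the activated receptors to PI3K, was at 7.55, 7.68, 7.64, 7.63 and 7.45 in the WT pools. It was at 7.74, 7.83, 7.81, 7.66 and 7.77 in the Lkb1 KO pools. The groups overlapped through Lkb1 KO replicate 4, which was just below WT replicate 2, and every pair of the same number had the higher value in Lkb1 KO, by 0.03 to 0.33. The difference was 0.17 (SE 0.05, interval 0.06 to 0.28), and Irs1 was called with cyclic loess or array weights but not with the values as deposited. With the sensory neuron or the fibroblast and mesenchyme markers described below as a covariate the Irs1 difference was 0.39 (SE 0.08 and 0.15), and Irs1 was called in neither fit. A second, dim probe set of Irs1, with group means of 4.55 in WT and 4.59 in Lkb1 KO, had a difference of 0.04 (SE 0.03). Irs2, the related docking protein, was at 6.71, 6.82, 6.86, 6.92 and 6.60 in WT and at 6.64, 6.79, 6.87, 6.82 and 7.05 in Lkb1 KO. Its groups overlapped throughout, with a difference of 0.05 (SE 0.08) that came from replicate 5 (0.46), the other 4 pairs lying between -0.09 and 0.01. With the fibroblast and mesenchyme covariate it was 0.70 (SE 0.13, interval 0.41 to 1.00), and with the sensory neuron covariate 0.21 (SE 0.15), again not called.

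The ligands had small differences of opposite sign. Igf1 was at 10.27, 10.05, 10.11, 9.94 and 9.93 in the WT pools and at 10.10, 9.92, 9.99, 9.83 and 9.64 in the Lkb1 KO pools. The ranges overlapped widely, yet each Lkb1 KO pool was below the WT pool of the same number, by 0.12 to 0.29. The difference was -0.16 (SE 0.08, interval -0.35 to 0.02), and with the replicate number as a block, where 6.42% of all genes were called, its SE was 0.04 and Igf1 was called. Without Lkb1 KO replicates 2 and 5 it was -0.09 (SE 0.08), and with the Y-linked covariate -0.07 (SE 0.09). With the marker means described below as covariates it was 0.08 (SE 0.16, sensory neurons), with the sign turned, and -0.71 (SE 0.21, interval -1.16 to -0.25, fibroblasts and mesenchyme). Igf2, the imprinted fetal growth factor, was at 11.85, 11.93, 11.90, 11.93 and 11.96 in WT and at 11.89, 11.98, 12.01, 12.08 and 12.03 in Lkb1 KO. All 5 pairs had the higher value in Lkb1 KO, by 0.05 to 0.15, and the difference was 0.09 (SE 0.04). With the sensory neuron covariate it was -0.02 (SE 0.08), with the sign turned, and with the fibroblast and mesenchyme covariate 0.25 (SE 0.12). Igf2 was called in none of the 23 settings tried. Ins2, the insulin gene of the same locus, was not called either (0.06, adjusted p = 0.521 from limma).

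The binding protein genes Igfbp2 and Igfbp5 follow each other directly in the RefSeq gene order on chromosome 1. Their promoter windows are printed because these neighbours had differences of opposite sign. Each window runs from 250 bases before to 50 bases after a start site, 5′ to 3′ on the gene's strand, and comes from RefSeq on GRCm38.p6. The Igfbp5 window is chr1:72874816-72875115 on the minus strand, and the Igfbp2 window, 1 of 2 for that gene, is chr1:72824230-72824529 on the plus strand.
Igfbp5: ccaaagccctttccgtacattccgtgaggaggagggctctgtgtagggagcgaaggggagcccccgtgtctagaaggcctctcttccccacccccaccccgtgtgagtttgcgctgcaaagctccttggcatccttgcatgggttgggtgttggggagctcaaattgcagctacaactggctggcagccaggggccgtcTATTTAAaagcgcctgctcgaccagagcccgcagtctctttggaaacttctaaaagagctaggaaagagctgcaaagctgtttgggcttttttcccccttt
Igfbp2: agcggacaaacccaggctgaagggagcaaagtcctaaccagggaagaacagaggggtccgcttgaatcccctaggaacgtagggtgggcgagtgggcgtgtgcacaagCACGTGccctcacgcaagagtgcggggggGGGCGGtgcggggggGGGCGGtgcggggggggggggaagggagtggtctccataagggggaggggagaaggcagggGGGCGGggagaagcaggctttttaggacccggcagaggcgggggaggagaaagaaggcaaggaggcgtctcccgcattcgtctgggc
Capitals mark the A/T-rich letters TATTTAA in the Igfbp5 window, and in the Igfbp2 window 1 CACGTG, the core of an E-box, and 3 copies of the GC box core GGGCGG. The other Igfbp2 window, chr1:72825137-72825436, held none of these motifs. On either strand, TATTTAA was found in 4.51% of 32851 windows of this length, CACGTG in 7.15% and GGGCGG in 35.7%. Windows were given for 8 of the 10 genes, 12 in all, and not for Insrr or Insr. CACGTG stood in a window of Igfbp2, Irs1, Irs2 and Igf2r. GGGCGG stood in 7 of the 12 windows, of Igf1r, Igf2, Igf2r, Igfbp2, Irs1 and Irs2. The CREB half-site TGACG, in 20.8% of all windows, stood in windows of Igf2, Igf2r and Irs1, where 1 copy in Irs1 and 2 in Igf2r overlap CACGTG by 2 letters. The full site TGACGTCA, the FOXO-type motif TGTTTAC and TATAAA were in none of the 12. A match describes letters and not a bound site.

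Igfbp5, which binds IGFs and also the extracellular matrix, was at 10.89, 11.07, 11.09, 11.06 and 11.02 in the WT pools. In the Lkb1 KO pools it was at 11.29, 11.53, 11.52, 11.60 and 11.47. Every Lkb1 KO pool was above every WT pool, and replicate 1 was the lowest of its group in both genotypes. The groups stood at 11.03 ± 0.08 and 11.48 ± 0.12, a difference of 0.46 (SE 0.06, interval 0.33 to 0.58), so that Lkb1 KO held 137% of the WT level. The pairs of the same number agreed closely, between 0.40 and 0.54. Without Lkb1 KO replicates 2 and 5 the difference was 0.44 (SE 0.07), and Igfbp5 was still called. Igfbp2, an IGF-binding protein abundant in embryonic tissue, was at 8.25, 8.51, 8.12, 8.18 and 8.16 in WT and at 8.28, 8.19, 7.91, 7.95 and 8.06 in Lkb1 KO. The groups overlapped, 4 of 5 pairs were lower in Lkb1 KO, and the difference was -0.16 (SE 0.08, interval -0.35 to 0.02). With the sensory neuron covariate it was -0.007 (SE 0.17), and with the fibroblast and mesenchyme covariate -0.35 (SE 0.26).

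Markers of several cell types moved with genotype, and in these bulk samples fewer cells of a type and less RNA per cell cannot be told apart. All 14 measured sensory neuron markers had a difference below 0, 3 of them called, and their mean was between 10.02 and 10.18 in WT and between 9.86 and 9.99 in Lkb1 KO. Of 13 fibroblast and mesenchyme markers 9 were called as higher, with means of 8.24 to 8.33 in WT and 8.48 to 8.62 in Lkb1 KO. Of 8 Schwann and satellite glia markers 2 were called as lower (means 9.61 to 9.69 against 9.50 to 9.56). The differences of these 8 ran from -0.50 to 0.07 with a median of -0.05, and 3 were above 0. Of 11 proliferation genes 8 were called as higher (8.72 to 8.94 against 9.08 to 9.31). All 8 spinal cord markers (2 called) and all 10 endothelial markers (1 called) had a difference above 0. Of 8 skeletal muscle markers 7 were above 0 and none was called, with means up to 5.54 in WT and 6.52 in Lkb1 KO. Cartilage and meningeal markers were above 0 in 7 of 8 each, with 2 called as higher in each list and 1 meningeal marker called as lower. Of 8 macrophage markers 6 were below 0 and none was called.

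Insrr and Igfbp5 lay differently beside the sensory neuron, proliferation, glia and fibroblast means. Over the deviations of the 10 pools from their group means, Insrr had a correlation of 0.73 with the sensory neuron mean and -0.70 with the proliferation mean, while Igfbp5 had -0.23 and 0.56. With the Schwann and satellite glia mean the values were 0.60 for Insrr and -0.53 for Igfbp5. With the fibroblast and mesenchyme mean they were 0.37 for Insrr and -0.71 for Igfbp5. Igfbp5 was thus lowest in the Lkb1 KO pool that was highest in fibroblast markers, replicate 1. With the sensory neuron mean as a covariate the Insrr difference was -0.14 (SE 0.21, interval -0.59 to 0.32) and that of Igfbp5 was 0.38 (SE 0.12). With the fibroblast and mesenchyme mean it was -1.27 (SE 0.41) for Insrr and 0.83 (SE 0.15) for Igfbp5. Neither gene was called in these 2 fits, in which the covariates had correlations of -0.87 and 0.95 with genotype, so that cell makeup and genotype cannot be told apart.

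**Figure D3:**
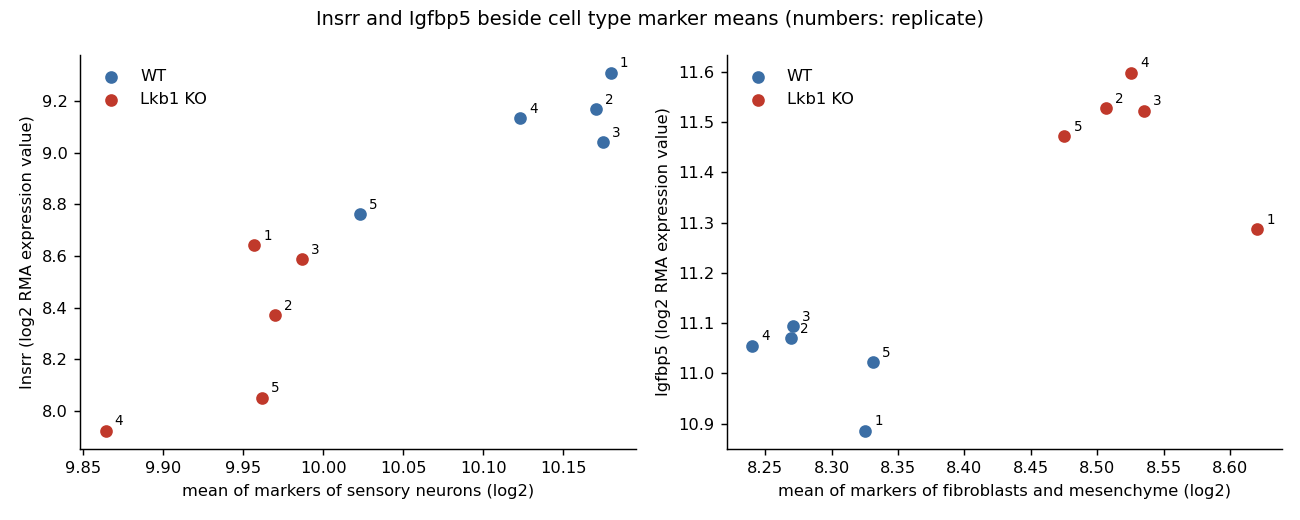
Insrr against the mean of the sensory neuron markers (left) and Igfbp5 against the mean of the fibroblast and mesenchyme markers (right), all log2 RMA expression values, with 1 point per pool labelled by its replicate number (WT blue, Lkb1 KO red). Lkb1 KO replicate 4 was lowest for Insrr (7.92) and for the sensory markers (9.86), and Lkb1 KO replicate 1 was highest for the fibroblast markers (8.62) while lowest of its group for Igfbp5 (11.29).

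The other members tracked Insrr to different degrees. Over the 10 arrays, which share each array's normalization and cell makeup, Igf1 had a Pearson r of 0.79 with Insrr and Igf2 of -0.87, and over deviations from group means the values were close, at 0.80 and -0.80. Igf2r had -0.72 and -0.65. Igfbp5 had -0.90 over all arrays and -0.56 within groups. Igfbp2 had 0.61 and 0.40, and Irs2 -0.28 and -0.21. Irs1 changed sign, from -0.46 over all arrays to 0.53 within groups, and so did Insr (-0.26 and 0.15) and Igf1r (0.17 and -0.14), whose values were smaller.

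The 5 genes whose pattern over the 10 arrays was most like that of Insrr were found among 19937 genes by Pearson's r, of which 179 (0.898%) reached 0.9. They were Myt1l, a neuronal transcription factor gene (r 0.98), Entpd2, an ecto-nucleotidase gene (0.98), Dgki, a diacylglycerol kinase gene (0.98), Ntm, which encodes the adhesion molecule neurotrimin (0.98), and Kit, the gene of the stem cell factor receptor (0.97). Their Spearman rho was between 0.96 and 0.99, and without Lkb1 KO replicates 4 and 5, the pools farthest from the Insrr median, r was between 0.94 and 0.98. Their own differences were smaller than that of Insrr, from -0.20 (SE 0.05) for Myt1l to -0.51 (SE 0.12) for Ntm. Over deviations from group means the leading 5 were Cers4, Kcnh7, Trpv1, Ntm and Flot1, with r between 0.96 and 0.97, so that Ntm was the gene in both sets. Ntm was at 10.08, 9.83, 9.82, 9.84 and 9.60 in the WT pools and at 9.70, 9.35, 9.46, 9.03 and 9.09 in the Lkb1 KO pools, with the same lowest pools as Insrr. The capsaicin receptor gene Trpv1 was at 9.72, 9.51, 9.39, 9.25 and 9.01 in WT and at 9.64, 9.26, 9.41, 8.42 and 8.55 in Lkb1 KO, again lowest in replicates 4 and 5 of Lkb1 KO. The groups overlapped for Trpv1, and also for Ntm and Kit. The nearest genes measured here on either side of Insrr had small differences with overlapping groups. Pear1 was at 7.15 ± 0.10 in WT and 7.16 ± 0.10 in Lkb1 KO, and Sh2d2a on the other side was dim, at 4.88 ± 0.07 and 4.96 ± 0.07.

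Around the 10 genes, 112 other genes of the insulin and IGF pathway were listed by function, of which 100 were measured. Hmga2 and Stc1 were higher in Lkb1 KO, Sh2b2 and Pappa2 were lower, and 96 did not pass the test. The share called was thus 4.00%, against 3.87% of all genes, and the median difference was -0.0047, against -0.0017 over all genes. At an unadjusted p under 0.05 from limma there were 24 of 100, against 15.3% of all genes. With the replicate number as a block 5 were higher and 6 lower (11 of 100, against 6.42% of all genes in that fit), adding Igfbp3, Igfbp7 and Grb10 to the higher genes and Pik3r1, Phlpp2, Shc3 and Socs2 to the lower ones. The gene-by-gene analysis of variance also called 4 (4.00%, against 1.94% of all genes in it), of which Hmga2 and Sh2b2 were shared with limma and the adaptor genes Dok1 and Sos2 were not. In the 5 lists where limma called 0, the analysis of variance called 0 as well.

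**Figure D4:**
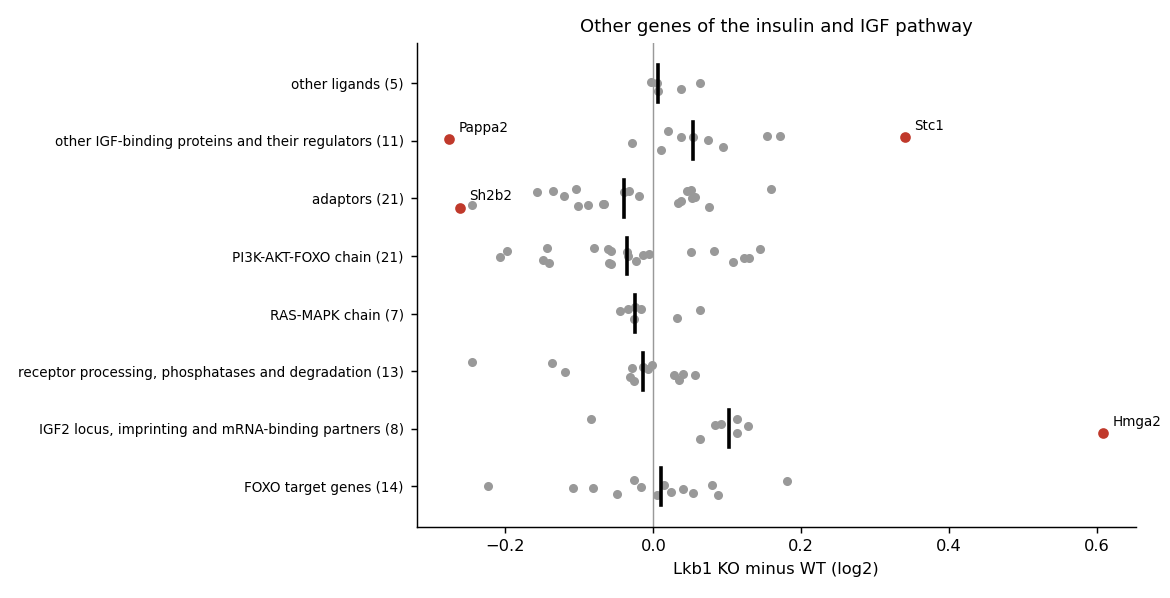
Difference between Lkb1 KO and WT on the log2 scale (x axis) of 100 other insulin and IGF pathway genes in 8 functional lists (y axis, number measured in parentheses), red and named where called. Black bars are list medians, which lie between -0.04 and 0.10, and Hmga2 (0.61) is farthest from 0.

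Among 11 other binding proteins and their regulators 1 was higher, 1 lower and 9 did not pass. Stc1 encodes stanniocalcin 1, a secreted glycoprotein that inhibits the pappalysin proteases, and was at 6.60, 6.58, 6.40, 6.46 and 6.36 in WT and 7.03, 6.78, 6.84, 6.77 and 6.68 in Lkb1 KO. All Lkb1 KO pools were above all WT pools, by 0.34 between the means (SE 0.07, adjusted p = 0.0128 from limma). Pappa2, a pappalysin that cleaves Igfbp3 and Igfbp5, was at 8.69, 8.85, 8.78, 8.93 and 8.63 in WT and 8.42, 8.56, 8.40, 8.48 and 8.65 in Lkb1 KO. Lkb1 KO replicate 5 lay within the WT range, and the difference was -0.28 (SE 0.07, adjusted p = 0.0333 from limma). The Pappa2 call was lost when WT replicate 2, 3 or 4 was left out, and when Lkb1 KO replicate 1, 2, 3 or 4 was, at adjusted p-values from limma between 0.0544 and 0.0909. Igfbp3, the main carrier of IGFs in plasma, had a difference of 0.15 (adjusted p = 0.0738 from limma, 0.0491 in the blocked fit).

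Of 21 adaptors, 1 was lower and 20 did not pass the test. Sh2b2, an SH2 adaptor recruited to the activated insulin receptor, was at 8.23, 8.25, 8.28, 8.23 and 8.17 in WT and 7.86, 8.05, 8.05, 8.004 and 7.88 in Lkb1 KO. The groups were apart, with a difference of -0.26 (SE 0.05, adjusted p = 0.00742 from limma). Shc3, a neuronal Shc adaptor, had a difference of -0.24 (adjusted p = 0.0904 from limma, 0.0130 in the blocked fit). Grb10, an imprinted adaptor that restrains both receptors, had 0.16 (adjusted p = 0.0922 from limma, 0.0266 in the blocked fit).

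None of 21 genes of the PI3K-AKT-FOXO chain passed the test, with 8 (38.1%) at an unadjusted p under 0.05 from limma, against 15.3% of all genes. This share was not particular to the chain. The adaptors also had 8 of 21 (38.1%), and the other binding proteins and their regulators had 4 of 11 (36.4%). Pik3r1, the regulatory subunit that docks on the substrates, was at 10.50, 10.38, 10.53, 10.42 and 10.36 in WT and 10.35, 10.25, 10.31, 10.11 and 10.18 in Lkb1 KO. Its groups did not overlap, and its difference of -0.20 had an adjusted p of 0.0589 from limma (0.0163 in the blocked fit). The catalytic subunit gene Pik3cb had 0.14 (adjusted p = 0.0721 from limma) and the AKT phosphatase gene Phlpp2 -0.14 (adjusted p = 0.123 from limma, 0.0450 in the blocked fit). None of 7 measured genes of the RAS-MAPK chain passed, by adjusted or unadjusted p from limma, and the nearest were Nf1 (0.06), Nras (-0.05) and Braf (-0.03).

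Of 8 measured genes listed under the Igf2 locus, imprinting and mRNA-binding partners, 1 was higher. H19, at the Igf2 locus, was listed but not measured. Hmga2, a chromatin protein of embryonic cells that promotes transcription of an Igf2 mRNA-binding protein, was at 7.77, 7.93, 7.99, 8.05 and 7.88 in WT and 8.21, 8.55, 8.62, 8.58 and 8.71 in Lkb1 KO. All Lkb1 KO pools were above all WT pools, and the difference was 0.61 (SE 0.08, adjusted p = 0.00132 from limma). Plagl1 and Cdkn1c, genes of the imprinted network, had 0.11 and 0.09 and did not pass. Among 13 genes of receptor processing, phosphatases and degradation none was called (2 at an unadjusted p under 0.05 from limma). Socs2, a suppressor of cytokine and growth hormone signalling, had -0.24 (adjusted p = 0.139 from limma, 0.00941 in the blocked fit), the phosphatase gene Ptprf -0.12 and Ptpn1 -0.14. None of 14 FOXO target genes passed (1 at an unadjusted p under 0.05 from limma), with Fbxo32, a ubiquitin ligase gene of muscle wasting, at 0.18 (adjusted p = 0.260 from limma), Klf15 at 0.08 and the thioredoxin-binding gene Txnip at -0.22. The 5 other ligand genes had mean levels from 4.85 (Rln3) to 6.21 (Insl5) in WT, all under the array medians, and none passed by adjusted or unadjusted p from limma, Insl6 having 0.04 and Rln3 0.006.

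With the sensory neuron mean as a covariate none of the 4 genes called here kept its call, while the differences themselves were 0.60 (SE 0.18) for Hmga2, 0.50 (SE 0.13) for Stc1, -0.20 (SE 0.10) for Sh2b2 and -0.17 (SE 0.13) for Pappa2. Every one of these standard errors was larger than without the covariate. With the fibroblast and mesenchyme mean Hmga2 alone was called, at 1.35 (SE 0.13), Sh2b2 was at -0.11 (SE 0.14), and the sign turned for Stc1 (-0.03, SE 0.18) and Pappa2 (0.22, SE 0.14). Leaving out Lkb1 KO replicates 2 and 5, or taking the Y-linked mean as a covariate, ended none of the 4 calls.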

How the data were processed

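Each of 5 WT and 5 Lkb1 KO pools of DRGs gave biotin-labelled material for its own one-colour Affymetrix Mouse Gene 1.0 ST array. The authors deposited log2 expression values of 35556 probe sets. Per the submitters' processing notes these came from RMA (background correction, quantile normalization and probe summary) and Partek 6.6, while the methods also name MATLAB. Quantile normalization sets all arrays to one distribution, so that a shift shared by most genes would not be seen. No genome build is named with the probe annotation. In it 21789 probe sets had 1 gene, 1621 had several and 12146 had none, and of the first 21698 matched RefSeq (GRCm38.p6). The brightest probe set of each gene left 19938 genes, dim ones included.

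Groups were compared in R 4.3.3 by limma 3.58.1 (two-sided, linear models with moderated variances), p-values were adjusted by Benjamini-Hochberg over the 19938 genes, and the fit was tested on simulated data. Python 3.11.15 with pandas 2.3.3 served for the remaining steps. The 10 genes and all lists were chosen with earlier results of these data known, so the 10 genes are described without p-values. Named in the text were the 10 genes with their other probe sets, Stk11, the 3 genes of smallest p in each pathway list, the 5 genes most like Insrr, and neighbours of Insrr and Igf2. Igfbp7, Dok1, Sos2, Cers4, Kcnh7, Trpv1, Flot1 and Xist were named after their values were seen.

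Same-numbered WT and Lkb1 KO pools deviated together from their group means (correlations across genes of 0.21 to 0.48, against -0.48 to 0.31 for other pairs), so the replicate number was used as a block in an alternative fit. The labels call the pools biological replicates without saying what a shared number means. Further settings were a gene-by-gene analysis of variance, cyclic loess, aligned array medians, array weights, an intensity trend plus robust prior, dropping the dimmest 30% of genes, averaging or testing every probe set of a gene, marker means as covariates and each pool left out. The fibroblast covariate and the fit without Lkb1 KO replicates 2 and 5 were added after seeing the data. The limma p-values set each difference between genotypes against the spread between pools, moderated across genes, and the number of arrays limits precision. Outside the blocked fit, same-numbered pools were treated as independent.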

Additional observations from a re-analysis of the deposited data

How the results depend on the processing

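Every one of the 10 genes was recomputed in 23 settings. Insrr kept its sign in 23 and its call in 18, and Igfbp5 in 23 and 21. All settings reuse the same arrays or most of them, and the genes were chosen with their contrast known. These tallies are therefore description only. Of the 10 genes 1 was called as higher, which became 2 with cyclic loess or array weights (Irs1) and 0 with the sensory neuron or the fibroblast covariate. It was 1 with each pool left out. The 1 called as lower became 2 with the replicate block (Igf1), and 0 with the analysis of variance, the Y-linked, sensory neuron or fibroblast covariate, or without Lkb1 KO replicates 2 and 5. The lowest and highest counts without single pools or those 2 were 0 and 1. The Insrr difference relative to the other receptors was -0.15 with the sensory neuron and -1.35 with the fibroblast covariate, and between -0.87 and -0.69 with pools left out. Of the 5 genes most like Insrr, 1 was shared with the 5 found by deviations from group means and 1 with those by Spearman's rho.

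Of the other pathway genes 2 were called as higher, against 4 with cyclic loess, 5 with the replicate block, 0 with the sensory neuron and 1 with the fibroblast covariate (2 to 3 with pools left out). The 2 called as lower became 6 with the block, 0 and 1 with those covariates, 1 when WT replicate 3 or 4 was left out or any of Lkb1 KO replicates 2 to 4, and 5 without Lkb1 KO replicate 1. The fibroblast covariate turned Stc1 to -0.033 and Pappa2 to 0.22. Over all genes 496 were higher and 275 lower. The higher counts were 260 with the analysis of variance, 285 with the Y-linked, 41 with the sensory neuron and 13 with the fibroblast covariate, and 288 to 487 with pools left out. The lower ones were 127, 565 with the block, 6 and 5 with the latter 2 covariates, 171 without Lkb1 KO replicates 2 and 5, and 146 to 347 with pools left out. Both covariates follow genotype closely, and the cause of these changes was not tested. No adjustment resolves the cell types within a pool, and dim probe sets can compress a difference.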
